A study of Homo sapiens with 12 samples.

Results

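A set of 10 genes of ethanol, formaldehyde and retinoid oxidation was followed in sorafenib-resistant and parental liver cancer cells: the 6 alcohol dehydrogenases ADH1A, ADH1B, ADH1C, ADH4, ADH5 and ADH6, and the 4 aldehyde dehydrogenases ALDH1A1, ALDH1B1, ALDH2 and ALDH3A1. They were chosen by gene symbol, and each was found in exactly 1 of the 98711 rows of every sample's table, of which 27249 carry an Ensembl identifier. The unit of the values is not stated. They behave as reads or fragments scaled by exon length and by library depth and are called FPKM here, so levels can be set beside each other per length of gene.

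Huh7 and HepG2 are established lines described in the labels as hepatocellular carcinoma cells with a WT genotype. Resistant cells of each line had survived sorafenib, a kinase inhibitor given in liver cancer, at a first concentration of 10 μmol with the medium exchanged after 24 h, and were then kept under rising doses for 8 months. Parental cells were labelled sorafenib sensitive and were untreated. Each of the 4 groups (resistant Huh7, parental Huh7, resistant HepG2, parental HepG2) holds 3 samples. The sources do not say whether the 3 samples are separate cultures, or whether a resistant line is a clone or a pool of survivors, so p-values measure only the spread between these samples. Nor do they state whether the resistant cells were under the drug at harvest.

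Alcohol dehydrogenases turn alcohols into aldehydes with NAD+, and aldehyde dehydrogenases turn aldehydes into acids. In the liver the class I enzymes ADH1A, ADH1B and ADH1C carry out most of the oxidation of ethanol, and mitochondrial ALDH2 clears the acetaldehyde that results. Other members act beside ethanol metabolism: ADH5 removes formaldehyde bound to glutathione, and ALDH1A1 makes retinoic acid from retinal. Mature hepatocytes are known for high levels of the class I enzymes.

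The libraries held 12290128 to 19285975 reads, calculated back from the FPKM values, with the parental HepG2 libraries the shallowest (at most 15728850). All 10 hepatocyte markers examined, among them albumin and apolipoproteins, reached 1 FPKM in every sample. The 6 fibroblast markers summed to between 1.81 and 5.34 FPKM and the 5 endothelial markers to between 1.17 and 3.66 FPKM over the 12 samples. Summed hepatocyte markers were at 8366 to 10226 FPKM in parental and 6645 to 6942 FPKM in resistant Huh7, and overlapped in HepG2 (5588 to 6610 and 5094 to 5816 FPKM). These sums do not give the direction of each marker. HNF4A, which is among the 10, had a mean of 46.9 FPKM in parental and 80.2 FPKM in resistant Huh7. Its log2 change was 0.77, or 0.25 after removal of the trend with GC content described below. The 5 cholangiocyte markers, of which KRT19, SOX9 and EPCAM were present in every sample and KRT7 and CFTR stayed under 1 FPKM, summed to 83.6 to 107 FPKM in parental and 142 to 154 FPKM in resistant Huh7, and to 169 to 210 FPKM in parental and 132 to 151 FPKM in resistant HepG2. The part of these differences in the results was not tested. In Huh7 the log2 change of a gene went with the GC content of its exons (Spearman rho 0.63 across 12545 genes). These genes share the same 6 libraries. In HepG2 rho was 0.03 across 11756 genes, but a rank correlation misses a bend. Median HepG2 changes were 0.35 at 32% to 34% GC, 0.05 at 48% to 50% and 0.54 at 66% to 68%. The members tested have 42.2% to 53.8% GC, where the HepG2 medians were nearly level. For the members tested, each Huh7 change is therefore also given after removal of the trend with GC content from each library. In bulk RNA, fewer cells with a transcript and less transcript per cell cannot be told apart.

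The 6 alcohol dehydrogenases lie side by side on the minus strand of chromosome 4 (GRCh38), in the order ADH5 (4:99070978-99088801), ADH4 (4:99123657-99157792), ADH6 (4:99202638-99219537), ADH1A (4:99276367-99291028), ADH1B (4:99304964-99352760) and ADH1C (4:99336492-99353027). The aldehyde dehydrogenases are dispersed, with ALDH1A1 at 9:72900662-73080442 (minus strand), ALDH1B1 at 9:38392664-38398661 (plus strand), ALDH2 at 12:111766887-111817529 (plus strand) and ALDH3A1 at 17:19737984-19748943 (minus strand). The coding sequences of the class I genes were 93.9% to 95.6% identical in pairs, against 62.5% to 68.1% for every other pair of alcohol dehydrogenases. The first 120 coding bases of the 3 class I genes in GENCODE 29 are shown because they make plain how few bases separate them. Capitals mark the 6 positions at which they are not all the same.
ADH1A: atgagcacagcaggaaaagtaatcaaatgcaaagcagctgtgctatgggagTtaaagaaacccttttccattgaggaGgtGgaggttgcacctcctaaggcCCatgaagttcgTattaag
ADH1B: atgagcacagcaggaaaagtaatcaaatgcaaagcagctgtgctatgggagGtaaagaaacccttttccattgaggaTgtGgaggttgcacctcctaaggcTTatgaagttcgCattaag
ADH1C: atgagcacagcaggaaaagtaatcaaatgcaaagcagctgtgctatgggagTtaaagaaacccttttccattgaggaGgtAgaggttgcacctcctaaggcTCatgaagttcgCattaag

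Of all 50-base stretches of its transcripts, 83.5% were found in no other gene for ADH1A, 95.4% for ADH1B and 81.1% for ADH1C, so reads of these genes could be divided between copies and their values are uncertain. ADH1B and ADH1C also share 103 exon bases. For ADH4 this share was 99.9%, for ADH6 99.4%, for ALDH1A1 100% and for ALDH1B1 99.5%. ADH5 (92.9%) shares stretches with its processed pseudogenes, and ALDH2 (90.5%) with AC002996.1, which overlaps 680 of its exon bases. An antisense gene, AP002026.1, crosses the cluster and shares 264 exon bases with ADH1A, 75 with ADH6 and 0 with ADH4. The library kit does not mark strand, so reads of ADH1A or ADH6 and of this antisense gene cannot be told apart where they overlap.

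The upstream regions of 3 genes are shown since ADH4 had lower and ALDH1B1 higher values in the resistant cells of both lines, and ADH6 lower values in resistant HepG2 (in Huh7 its direction turned with the GC trend taken off, as given with its values). Each is the 250 bases before the RefSeq start on GRCh38.p14, read 5′ to 3′ on the strand of the gene, and RefSeq promoters were matched for 8 of the 10 genes (not ALDH2 or ALDH3A1). Capitals mark every match, on either strand, to 7 short motifs. The first is the CCAAT box, searched by the letters of its name. The GC box was searched as GGGCGG, the binding motif of Sp1-type factors. The core of a TATA box was searched as TATAAA, where general transcription factors can bind. The core of an HNF1 site was searched as GTTAAT, a motif of a hepatocyte factor. The E-box was searched as CACGTG, a motif bound by helix-loop-helix factors. A C/EBP-type element was searched as TTNNGNAA, and the core of an antioxidant response element as TGACNNNGC. No matches of different motifs overlapped in these 3 sequences.
ADH4, 4:99144298-99144547, minus strand: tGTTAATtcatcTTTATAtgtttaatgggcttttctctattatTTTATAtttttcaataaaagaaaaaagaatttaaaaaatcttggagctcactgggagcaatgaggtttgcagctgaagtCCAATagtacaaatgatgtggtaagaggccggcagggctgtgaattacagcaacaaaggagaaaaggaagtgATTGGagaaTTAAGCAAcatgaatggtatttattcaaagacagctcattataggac
ADH6, 4:99219247-99219496, minus strand: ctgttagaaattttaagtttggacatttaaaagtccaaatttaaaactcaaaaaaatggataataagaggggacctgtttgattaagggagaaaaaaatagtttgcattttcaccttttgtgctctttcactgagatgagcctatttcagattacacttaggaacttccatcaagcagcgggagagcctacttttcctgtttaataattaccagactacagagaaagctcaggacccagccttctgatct
ALDH1B1, 9:38392452-38392701, plus strand: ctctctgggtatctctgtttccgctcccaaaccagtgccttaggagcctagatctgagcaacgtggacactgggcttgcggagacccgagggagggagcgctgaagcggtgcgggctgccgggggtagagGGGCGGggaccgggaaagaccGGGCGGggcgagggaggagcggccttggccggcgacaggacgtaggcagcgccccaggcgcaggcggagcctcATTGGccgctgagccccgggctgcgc

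The ADH4 sequence had 34.0% GC and 1 CG dinucleotide, with CCAAT boxes beginning 128 and 56 bases before the start, a C/EBP-type element at 47, TATA boxes at 238 and 207 and an HNF1 core at 249. The ADH6 sequence had 36.4% GC and held none of the 7 motifs. The ALDH1B1 sequence had 70.4% GC and 23 CG dinucleotides, with GC boxes at 120 and 99 and a CCAAT box at 26. Over 35116 promoter windows of the same length, 32.0% held a CCAAT box, 33.2% a C/EBP-type element, 10.7% a TATA box, 6.23% an HNF1 core, 42.6% a GC box, 6.34% an E-box and 10.9% the antioxidant core. A match is a description of these letters only. For each of these genes the RefSeq start lies inside the GENCODE gene, which reaches further upstream. The ADH4 and ADH6 windows lie wholly inside their genes, which reach to 4:99157792 and 4:99219537. The last bases of the ALDH1B1 window, with the CCAAT box at 26, also lie inside its gene, which begins at 9:38392664.

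Among the 4 aldehyde dehydrogenases of the set, ALDH1A1 led in every sample. It made up 94.3% to 96.4% of their summed FPKM in parental Huh7 and 89.6% to 91.7% in resistant Huh7. In HepG2 it made up 77.8% to 84.2% in parental and 61.1% to 70.3% in resistant samples. Outside the set, ALDH18A1 had higher group means than ALDH1A1 in HepG2 (157 FPKM in parental and 247 FPKM in resistant cells). Ranked by mean FPKM among the 27249 Ensembl genes, ALDH1A1 stood at place 25 in parental Huh7, 91 in resistant Huh7, 198 in parental HepG2 and 287 in resistant HepG2. The summed FPKM of the 4 aldehyde dehydrogenases was 417 ± 45.0 (SD, n = 3) in parental and 287 ± 27.5 (SD, n = 3) in resistant Huh7, and 152 ± 14.8 (SD, n = 3) in parental and 135 ± 5.43 (SD, n = 3) in resistant HepG2. The alcohol dehydrogenases together gave 55.3 ± 1.72 (SD, n = 3) in parental and 61.1 ± 8.02 (SD, n = 3) in resistant Huh7, and 119 ± 13.8 (SD, n = 3) in parental and 76.7 ± 2.75 (SD, n = 3) in resistant HepG2. The class I enzymes, abundant in mature liver, stayed below 1 FPKM in all 12 samples.

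**Figure D1:**
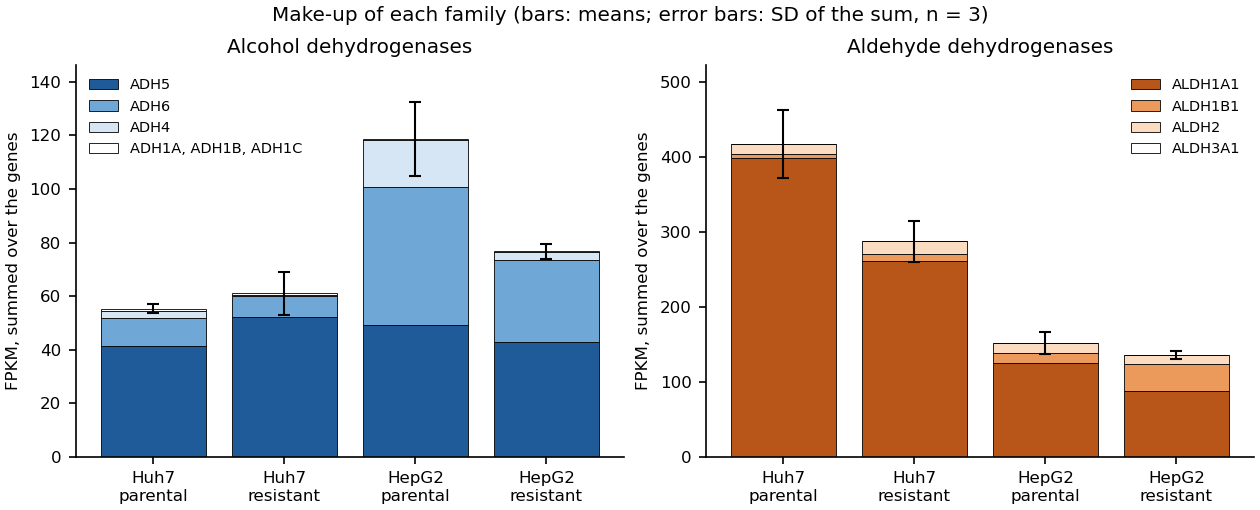
Mean FPKM (y axis) of each gene stacked by group (x axis), for the alcohol dehydrogenases on the left and the aldehyde dehydrogenases on the right, with error bars for the SD of the family sum over 3 samples. ALDH1A1 fills most of every bar on the right, and the parental HepG2 bar on the left, at 119 FPKM, is the tallest because ADH6 and ADH4 add to ADH5.

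For a test, a gene had to reach 1 FPKM in at least 3 of the samples compared, and limma was applied to log2(FPKM + 1) with Benjamini-Hochberg adjustment over all Ensembl genes tested. A gene passed at an adjusted p under 0.05, and was called differentially expressed if its log2 change was also beyond 1. Of the 10 members, 6 passed the filter (ADH4, ADH5, ADH6, ALDH1A1, ALDH1B1 and ALDH2), ADH4 in Huh7 only through its parental samples, so that it had to differ to be counted there. In Huh7, 3 of the 6 were higher in resistant cells, where 32.7% of the 12554 genes tested were, and 3 were lower, where 37.4% were. ADH4 alone was differentially expressed, and lower, as were 14.0% of the genes, while no member was higher by that rule (8.59% of the genes). In HepG2, 1 of the 6 was higher (11.6% of 11762 genes) and 2 were lower (8.43%). There ALDH1B1 was differentially expressed and higher (3.29% of the genes), and ADH4 was differentially expressed and lower (2.98%). With the GC trend taken off, 3 of the 6 passed in Huh7 (ADH4, ADH5 and ALDH1B1). In Huh7 the count was 3 without resistant replicate 3 or parental replicate 1, and 2 without parental replicate 2. The 6 resistant and parental values did not overlap for 5 of the 6 members in Huh7, where this held for 74.5% of the genes, and for 5 of the 6 in HepG2, where it held for 40.4%.

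**Figure D2:**
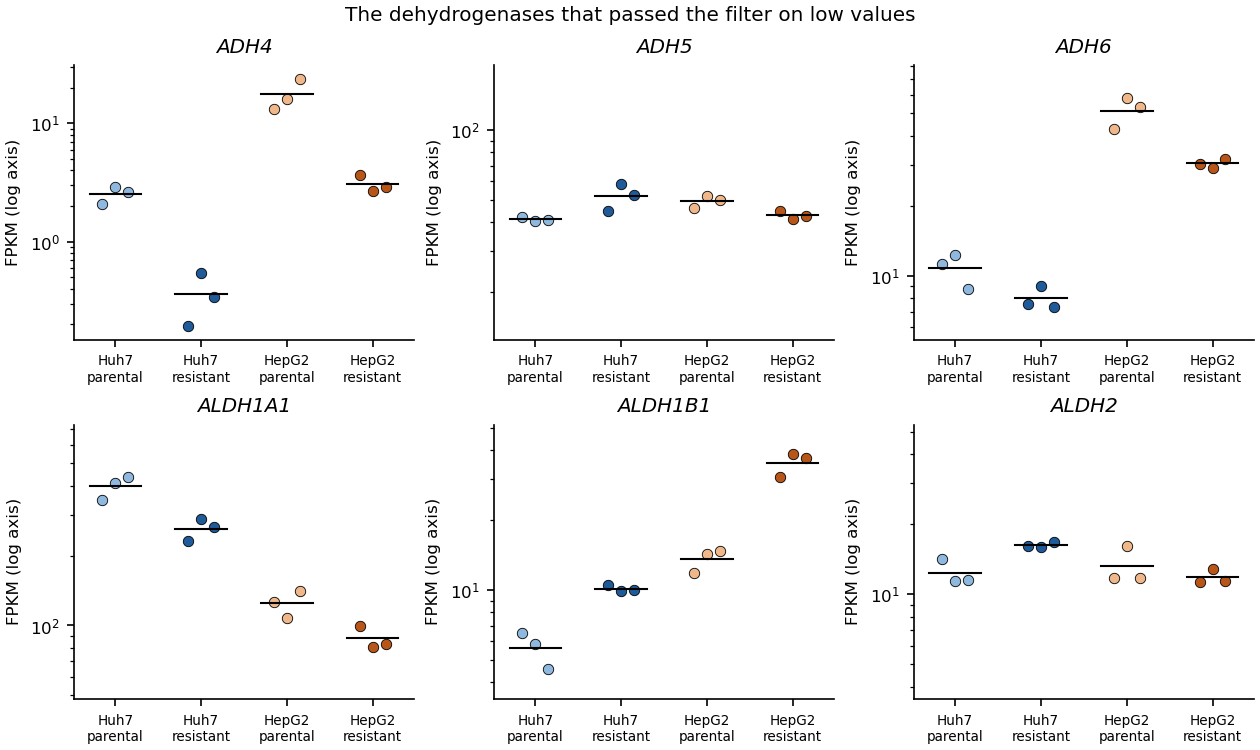
FPKM on a log axis (y axis) of the 6 members that passed the filter, in 4 groups of 3 samples (x axis), with points for samples and a line for the group mean. ADH4 was lower and ALDH1B1 higher in resistant than in parental samples of both lines with no overlap, and ADH5 stayed between 40.5 and 58.6 FPKM in all 12 samples.

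ADH4, the class II enzyme that oxidises ethanol at high concentrations and also retinol, fell in both lines. In Huh7 it measured 2.07, 2.93 and 2.62 FPKM in parental samples and 0.193, 0.550 and 0.343 FPKM in resistant ones, from 316 reads in all against 51. The highest resistant sample lay well under the lowest parental one. The means differed 7.02-fold, and on the log2(FPKM + 1) scale, which understates changes of low genes, ADH4 fell by 1.38 (SE 0.14, limma adjusted p = 9.16e-05). With the GC trend taken off it fell by 0.85 (SE 0.11, limma adjusted p = 0.000515), which passes the test but is under the fold limit. Without any of the 3 parental Huh7 samples ADH4 missed the filter and could not be tested.

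In HepG2, ADH4 measured 13.3, 16.0 and 23.8 FPKM in parental and 3.66, 2.70 and 2.89 FPKM in resistant samples. Again the groups did not overlap, and the parental samples spread more than the resistant ones. The means, 17.7 ± 5.45 and 3.08 ± 0.508 (SD, n = 3 each), differed 5.75-fold, and ADH4 fell by 2.17 on the log2 scale (SE 0.22, limma adjusted p = 0.000739). ADH4 was among the genes that the study picked from these samples, so its direction here is not independent evidence. Over the 4 groups its order was parental HepG2, resistant HepG2, parental Huh7, resistant Huh7, and the middle pair overlapped (2.70 to 3.66 against 2.07 to 2.93 FPKM).

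An antisense NONCODE gene that covers ADH4, ADH6 and ADH1A (NONHSAG038486.3, plus strand) measured 1.38 ± 0.218 FPKM in parental and 0.379 ± 0.0918 FPKM in resistant Huh7, and 0.703 ± 0.247 FPKM in parental and 0.886 ± 0.192 FPKM in resistant HepG2 (SD, n = 3 each). In resistant Huh7, where ADH4 and ADH1A were lower, it was lower too and its groups did not overlap, and in HepG2 its groups overlapped. It begins at the same base as AP002026.1 (4:99088857), which shares 264 exon bases with ADH1A, 75 with ADH6 and 0 with ADH4. The part of this antisense gene in the values of ADH1A, ADH6 and ADH4 was not tested.

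ADH6, the class V gene, whose substrates in cells are little known, fell in HepG2. Parental HepG2 samples measured 42.9, 58.0 and 53.2 FPKM and resistant ones 30.4, 29.2 and 31.8 FPKM. No sample of either group reached into the range of the other. ADH6 fell by 0.73 on the log2 scale (SE 0.15, limma adjusted p = 0.0135), and its means differed 1.69-fold. Without resistant HepG2 replicate 3 the adjusted p by limma was 0.0606, with a fall of 0.76.

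In Huh7, ADH6 measured 11.2, 12.3 and 8.77 FPKM in parental and 7.57, 9.00 and 7.36 FPKM in resistant samples, and the groups overlapped. It passed the test with a log2 change of −0.38 (SE 0.14, limma adjusted p = 0.0378). Taking off the GC trend turned the direction to 0.14 (SE 0.13, limma adjusted p = 0.387). The call was also lost with no filter on low values (adjusted p = 0.0753 by limma), and without resistant replicate 1 (−0.35, adjusted p = 0.104 by limma), resistant replicate 3 (−0.33, 0.116), parental replicate 1 (−0.35, 0.0834) or parental replicate 2 (−0.29, 0.145).

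ADH5, the glutathione-dependent formaldehyde dehydrogenase found in nearly all cells, had the narrowest span of group means among the alcohol dehydrogenases that passed the filter. Parental Huh7 samples measured 42.1, 40.5 and 41.1 FPKM and resistant ones 44.8, 58.6 and 52.6 FPKM. Every resistant sample was above every parental one, and the resistant samples spread more. ADH5 rose by 0.32 on the log2 scale (SE 0.12, limma adjusted p = 0.0391), and by 0.68 (SE 0.07, limma adjusted p = 0.000237) with the GC trend taken off. The call was lost with no filter on low values (adjusted p = 0.061 by limma), and without resistant replicate 2 (0.23, adjusted p = 0.106 by limma), resistant replicate 3 (0.31, 0.122), parental replicate 1 (0.34, 0.0596), parental replicate 2 (0.31, 0.118) or parental replicate 3 (0.32, 0.072).

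In HepG2, ADH5 measured 46.3, 51.9 and 49.9 FPKM in parental and 44.8, 41.5 and 42.8 FPKM in resistant samples. The groups did not overlap, but the log2 change of −0.19 (95% confidence interval −0.48 to 0.10) did not pass (limma adjusted p = 0.304).

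**Figure D3:**
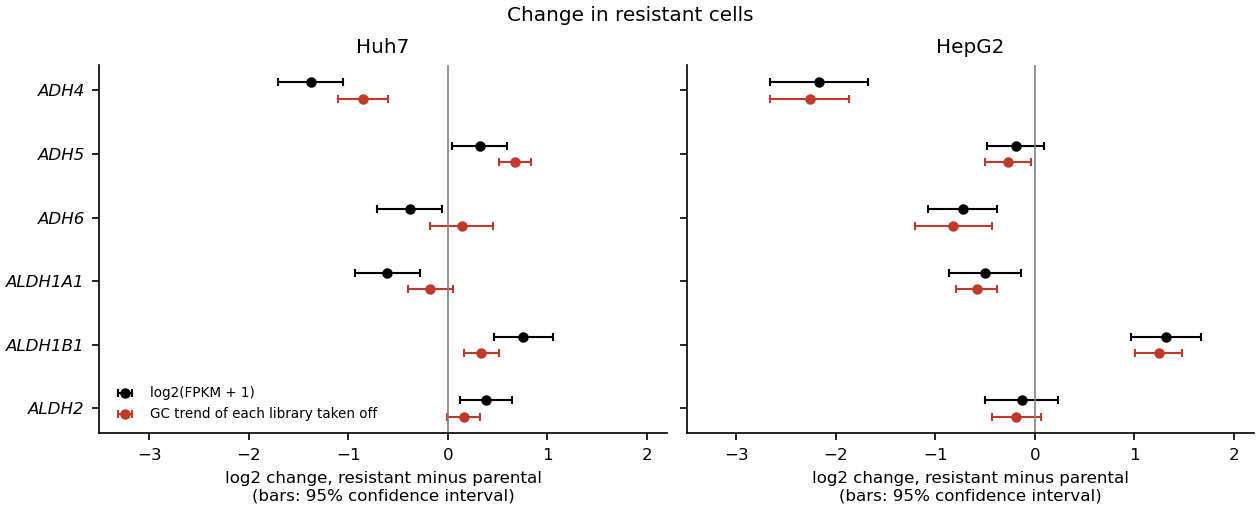
Log2 change (x axis, resistant minus parental, with 95% confidence intervals) of the 6 members that passed the filter (y axis) in Huh7 on the left and HepG2 on the right, from log2(FPKM + 1) in black and with the GC trend of each library taken off in red. In Huh7 the red points move by up to 0.52 and that of ADH6 crosses 0, while in HepG2 both estimates of each gene lie within 0.10 of each other.

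ALDH1A1, the cytosolic enzyme that makes retinoic acid from retinal, was the most abundant member in every sample. Parental Huh7 samples measured 346, 412 and 438 FPKM and resistant ones 231, 286 and 265 FPKM. The groups did not overlap. ALDH1A1 fell by 0.61 on the log2 scale (SE 0.14, limma adjusted p = 0.00506), a 1.53-fold difference of means, but with the GC trend taken off the change was −0.17 (SE 0.09, limma adjusted p = 0.145). That was the highest adjusted p of the 15 alternatives, and the lowest was 8.01e-05.

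In HepG2 the parental samples measured 126, 108 and 141 FPKM and the resistant ones 99.4, 80.8 and 83.4 FPKM. These groups did not overlap either, and the log2 change of −0.50 (95% confidence interval −0.86 to −0.14) did not pass after adjustment (limma adjusted p = 0.0579). It passed with a log2 change of −0.58 (limma adjusted p = 0.00317) with the GC trend taken off, with −0.61 (0.0293) under median-ratio scaling, −0.57 (0.0378) under upper-quartile scaling, −0.51 (0.0379) by limma-voom on the reads, −0.50 (0.0203) with all 12 samples in 1 fit, and −0.60 (0.0427) without parental replicate 2, and over the 15 alternatives the adjusted p ran from 0.00317 to 0.221. From highest to lowest, ALDH1A1 was ordered parental Huh7, resistant Huh7, parental HepG2 and resistant HepG2, with no overlap between neighbours.

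ALDH1B1, a mitochondrial enzyme that oxidises acetaldehyde and other short aldehydes, rose in both lines. In HepG2 the parental samples measured 11.8, 14.3 and 14.7 FPKM and the resistant ones 30.7, 38.5 and 37.0 FPKM. The lowest resistant sample was above the highest parental one, and the means differed 2.61-fold. The log2 change was 1.32 (SE 0.15, limma adjusted p = 0.00126), and stayed between 1.21 and 1.42 in the 15 alternatives tried.

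In Huh7, ALDH1B1 measured 6.54, 5.83 and 4.55 FPKM in parental and 10.5, 9.89 and 10.0 FPKM in resistant samples. The groups did not overlap, and the means differed 1.80-fold. It rose by 0.76 on the log2 scale (SE 0.13, limma adjusted p = 0.000968). With the GC trend taken off it rose by 0.34 (SE 0.07, limma adjusted p = 0.00623). The exons of ALDH1B1 have 53.8% GC, and the median log2 change in Huh7 of the 746 genes within 1 percentage point of it was 0.43.

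ALDH2, the mitochondrial enzyme that clears acetaldehyde, differed little in level. Parental Huh7 samples measured 14.2, 11.4 and 11.5 FPKM and resistant ones 16.1, 16.0 and 16.9 FPKM. The resistant samples lay close together and above the parental ones. ALDH2 rose by 0.38 on the log2 scale (SE 0.11, limma adjusted p = 0.0155). The change was 0.16 (SE 0.07, limma adjusted p = 0.0849) with the GC trend taken off, and the call was lost without resistant replicate 3 (0.36, adjusted p = 0.065 by limma) or parental replicate 2 (0.33, 0.0767). In HepG2, with 11.7, 16.2 and 11.8 FPKM in parental and 11.3, 12.9 and 11.4 FPKM in resistant samples, the groups overlapped. The log2 change was −0.13 (95% confidence interval −0.50 to 0.24, limma adjusted p = 0.586), and it was 0.01 without parental replicate 2, the highest sample.

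**Figure D4:**
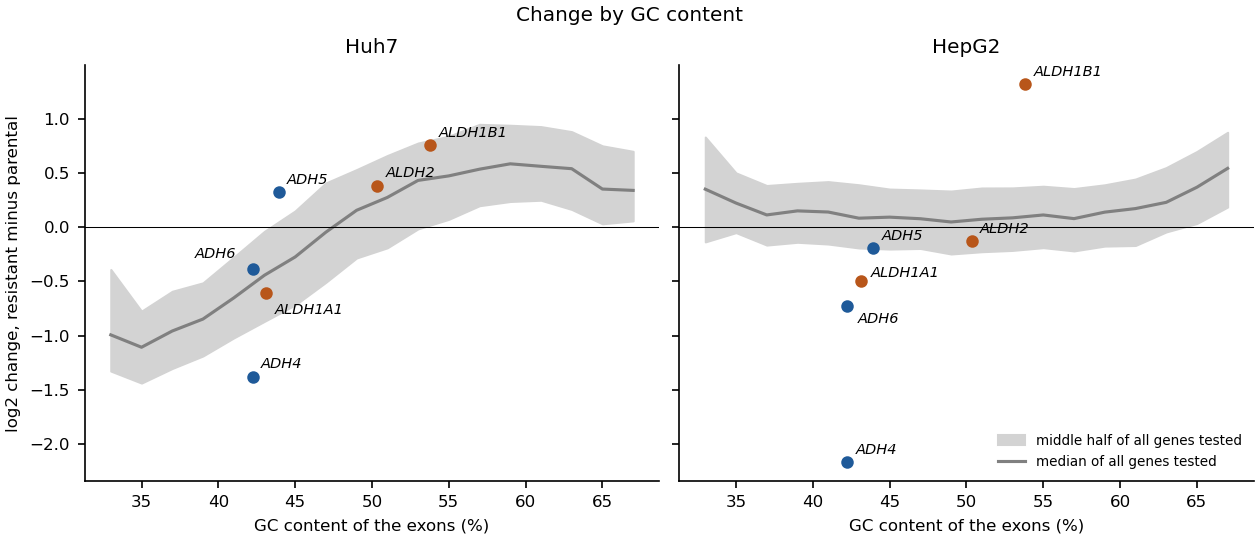
Log2 change (y axis, resistant minus parental) against GC content of the exons (x axis, %) in Huh7 on the left and HepG2 on the right, with points for the 6 members that passed the filter, a grey line for the median of all genes tested in bins of 2 percentage points and a band between their quartiles. In Huh7 the line climbs with GC content, and ADH6, ALDH1A1, ALDH1B1 and ALDH2 lie within the band, ADH4 below it and ADH5 above it, while in HepG2 the line is nearly level between GC contents of 36% and 60%.

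The other 4 members, ADH1A, ADH1B, ADH1C and ALDH3A1, stayed under 1 FPKM everywhere and rest on few reads. The class I genes, the main ethanol oxidisers of liver, were not alike in Huh7. ADH1A had 12, 26 and 27 reads in parental and 7, 9 and 5 in resistant samples, and ADH1B had 20, 27 and 25 against 7, 6 and 4. For both, every parental sample had more reads than every resistant one. ADH1C went the other way, with 5, 3 and 0 reads in parental and 15, 29 and 17 in resistant samples. As levels, ADH1C measured 0.571 ± 0.207 FPKM in resistant Huh7, ADH1A 0.573 ± 0.242 FPKM in parental Huh7 and ADH1B 0.132 ± 0.0248 FPKM in parental Huh7 (SD, n = 3 each). The FPKM of ADH1B is divided by an exon length of 10777 bases, against 2258 for ADH1A and 1860 for ADH1C.

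**Figure D5:**
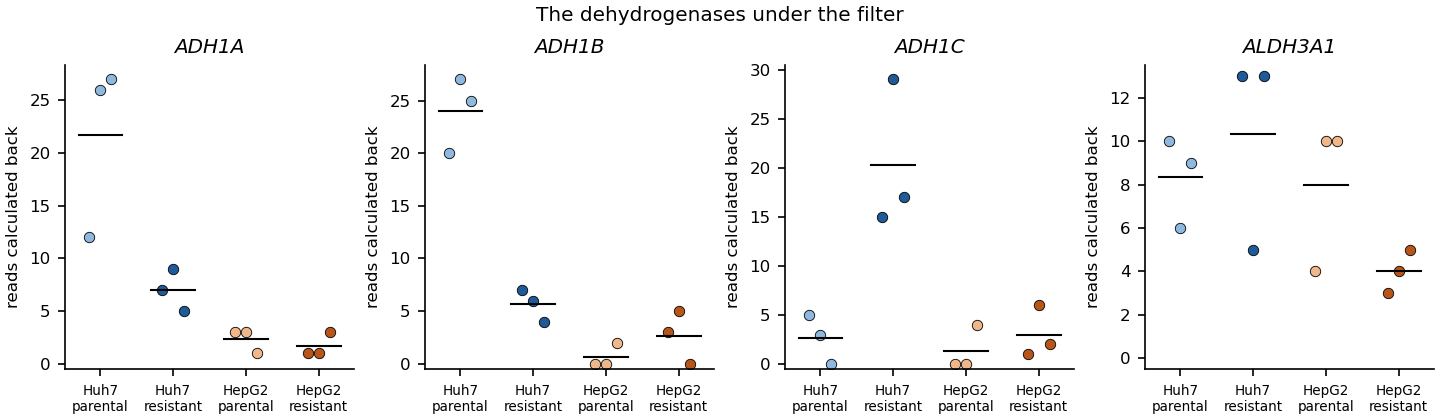
Reads calculated back from FPKM (y axis) for the 4 members below the filter, in 4 groups of 3 samples (x axis), with points for samples and a line for the group mean. In Huh7, ADH1A and ADH1B have more reads in parental samples and ADH1C in resistant ones, while no HepG2 sample has more than 6 reads of any of these 3 genes.

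With no filter on low values, ADH1A fell by 0.43 (SE 0.12, limma adjusted p = 0.0329), ADH1B fell by 0.14 (SE 0.03, limma adjusted p = 0.0069) and ADH1C rose by 0.53 (SE 0.11, limma adjusted p = 0.00907) in Huh7, on a log2 scale that is compressed at such levels. In that fit 40.0% of 25712 genes passed. Reads of ADH1A, ADH1B and ADH1C could be divided between copies, as set out above, and these values are uncertain for that reason. The exons have 44.2% GC in ADH1A, 40.7% in ADH1B and 48.1% in ADH1C, so the gene that rose has the highest GC content of the 3, and the part of the GC trend in these changes was not tested. In HepG2 the reads numbered 3, 3 and 1 (parental) and 1, 1 and 3 (resistant) for ADH1A, 0, 0 and 2 against 3, 5 and 0 for ADH1B, and 0, 0 and 4 against 1, 6 and 2 for ADH1C. None of the 4 low members passed there, in a fit in which 6.53% of 24827 genes did, and a difference was not detectable at this depth. At the unadjusted level, 1 of the 4 was under 0.05.

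ALDH3A1, an aldehyde dehydrogenase best known from the cornea and stomach, had 10, 6 and 9 reads in parental and 13, 5 and 13 in resistant Huh7, where the groups overlapped. In HepG2 it had 4, 10 and 10 reads in parental and 3, 4 and 5 in resistant samples. As FPKM the HepG2 groups did not overlap (0.0778 or more against 0.0742 or less), and the log2 change of −0.12 did not pass (limma adjusted p = 0.205).

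The change with resistance was also compared between the lines, as an interaction in all 12 samples, in which 56.3% of 13800 genes passed and the median difference over all genes was −0.15. Under median-ratio scaling that median was −0.03. Of the 6 members, 4 passed. The change of ADH5 was 0.51 log2 units higher in Huh7 than in HepG2 (SE 0.15, limma adjusted p = 0.012), and it passed in each of the 20 alternatives. The change of ALDH2 was 0.51 higher (SE 0.19, limma adjusted p = 0.0352), and that of ALDH1B1 was 0.56 lower in Huh7 (log2 difference −0.56, SE 0.19, limma adjusted p = 0.0257). The change of ADH4 was 0.79 higher in Huh7 (SE 0.27, limma adjusted p = 0.0288), but −0.12 with a pseudocount of 0.1 (limma adjusted p = 0.822) and −0.38 by limma-voom on the reads (adjusted p = 0.536), and over the 20 alternatives the adjusted p ran from 0.000278 to 0.822. The direction for ADH4 therefore depended on how low values were treated. ADH6 (0.34, limma adjusted p = 0.164) and ALDH1A1 (−0.11, limma adjusted p = 0.665) did not pass, and with the GC trend taken off both did, at 0.94 (0.00443) and 0.40 (0.0192). The count of members that passed was 1 without resistant replicate 3 of either line, and 2 without resistant replicate 2 of either line or parental Huh7 replicate 1 or 2.

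The lines themselves differed more than the resistant and parental cells for several members. Between parental lines, ALDH1A1 was higher in Huh7, with 399 ± 47.5 against 125 ± 16.7 FPKM (SD, n = 3 each), a log2 difference of 1.67 (SE 0.17, limma adjusted p = 5.65e-05). In that comparison 39.0% of 12796 genes were higher in Huh7 and 26.2% lower, or 19.4% and 12.5% as differentially expressed. In all, 3 members were lower in parental Huh7. ADH6 measured 10.8 ± 1.81 against 51.4 ± 7.72 FPKM (SD, n = 3 each), with a log2 difference of −2.16 (SE 0.17, limma adjusted p = 1.36e-05). The log2 difference was −2.37 for ADH4 (SE 0.21, limma adjusted p = 2.95e-05) and −1.14 for ALDH1B1 (SE 0.16, limma adjusted p = 0.00037). ADH5 (−0.25, 95% confidence interval −0.53 to 0.02) and ALDH2 (−0.08, −0.47 to 0.30) did not pass. ADH5 passed with a log2 difference of −0.59 (limma adjusted p = 0.00156) with the GC trend taken off, −0.34 (0.0287) under upper-quartile scaling and −0.42 (0.0109) under median-ratio scaling, which moved the median of all genes in this comparison from 0.19 to 0.05.

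Between resistant lines, where 32.7% of 12550 genes were higher in Huh7 and 34.4% lower (14.4% each as differentially expressed), the same 4 members passed, ADH4 through the HepG2 samples alone, since no resistant Huh7 sample reached 1 FPKM, so that it had to differ to be counted there too. ALDH1A1 was higher in Huh7 by 1.56 log2 units (SE 0.13, limma adjusted p = 2.96e-05). The log2 difference was −1.58 for ADH4 (SE 0.14, limma adjusted p = 4.09e-05), −1.81 for ADH6 (SE 0.11, limma adjusted p = 5.06e-06) and −1.70 for ALDH1B1 (SE 0.11, limma adjusted p = 8.92e-06), all lower in Huh7. ALDH2 also passed, at 0.43 higher in Huh7 (SE 0.09, limma adjusted p = 0.00482). ADH5 was at 0.26 (95% confidence interval −0.01 to 0.53, limma adjusted p = 0.0844), and it passed at 0.40 with the GC trend taken off (limma adjusted p = 0.0013), at 0.29 under median-ratio scaling (0.0484), at 0.26 with all 12 samples in 1 fit (0.0487) and at 0.36 without resistant Huh7 replicate 1 (0.0317).

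Among the 17 further alcohol and aldehyde dehydrogenases examined, 11 were tested in Huh7, where 4 rose and 3 fell (32.7% and 37.4% of all genes), and 9 in HepG2, where 4 rose and 1 fell (11.6% and 8.43% of all genes). With the GC trend taken off, 4 rose and 3 fell in each line. Their median log2 change was 0.05 in Huh7 and 0.48 in HepG2, beside −0.04 and 0.12 over all genes tested. ALDH4A1, a mitochondrial enzyme of proline breakdown, rose in Huh7 from 6.42 ± 1.18 to 14.3 ± 1.90 FPKM (SD, n = 3 each), a log2 change of 1.04 (limma adjusted p = 0.000373). ALDH9A1, which acts in carnitine synthesis, rose from 5.83 ± 0.527 to 12.7 ± 0.612 FPKM (SD, n = 3 each), a log2 change of 1.00 (limma adjusted p = 9.9e-05). With the GC trend taken off these changes were 0.51 and 0.97, and no gene of the list was beyond the fold limit in Huh7. None of the 9 was differentially expressed in HepG2. There ALDH4A1 went the other way, from 43.1 ± 10.3 to 26.9 ± 4.50 FPKM (SD, n = 3 each). That log2 change was −0.65 (limma adjusted p = 0.0568), or −0.82 (0.00599) with the GC trend taken off. The difference between the changes of ALDH4A1 was 1.69 log2 units (SE 0.27, limma adjusted p = 0.000354), and 1.36 with the GC trend taken off.

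Of 5 genes of ethanol and acetate handling, CYP2E1, the microsomal ethanol oxidase, stayed under the filter in both lines. In Huh7, 1 of the 3 tested rose and 2 fell (32.7% and 37.4% of all genes), with ACSS3, a mitochondrial short-chain acyl-CoA synthetase, going from 9.81 ± 1.43 to 3.91 ± 0.184 FPKM (SD, n = 3 each), a log2 change of −1.13 (limma adjusted p = 0.00011), or −0.52 with the GC trend taken off. In HepG2, 2 of the 4 tested rose (11.6% of all genes), or 3 with the GC trend taken off.

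Of 22 retinoid handling genes listed, 21 were in the tables. In Huh7, 5 of the 12 tested rose and 0 fell (32.7% and 37.4% of all genes), a split that became 6 against 3 with the GC trend taken off. In HepG2, 0 of the 11 tested rose and 2 fell (11.6% and 8.43% of all genes), or 0 and 4 with the GC trend taken off. RBP4, the plasma carrier of retinol, rose in Huh7 from 431 ± 51.9 to 1017 ± 85.9 FPKM (SD, n = 3 each), a log2 change of 1.24 (limma adjusted p = 0.000157), or 0.78 with the GC trend taken off. DHRS3, which reduces retinal to retinol, rose in Huh7 from 11.6 ± 1.82 to 27.5 ± 3.15 FPKM and fell in HepG2 from 54.5 ± 13.1 to 24.1 ± 2.45 FPKM (SD, n = 3 each). The difference between its changes was 2.30 log2 units (SE 0.24, limma adjusted p = 2.55e-05), and 1.92 with the GC trend taken off.

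Of 10 regulators known to act on liver dehydrogenase genes or on responses to toxic compounds, 9 were in the tables. In Huh7, 3 of the 6 tested rose and 2 fell (32.7% and 37.4% of all genes), and with the GC trend taken off 1 rose and 1 fell. In HepG2, 2 of the 7 tested fell and 0 rose (8.43% and 11.6% of all genes), and with the GC trend taken off 2 fell and 1 rose. CEBPB, a leucine zipper factor of the C/EBP family, fell in HepG2 from 43.7 ± 7.50 to 18.7 ± 1.69 FPKM (SD, n = 3 each), a log2 change of −1.17 (limma adjusted p = 0.00255). In Huh7 it rose from 4.33 ± 0.751 to 6.42 ± 0.326 FPKM (SD, n = 3 each). That log2 change was 0.49 (limma adjusted p = 0.00921), or 0.08 with the GC trend taken off. The difference between its changes was 1.66 log2 units (SE 0.20, limma adjusted p = 6.38e-05), and 1.64 with the GC trend taken off. PPARGC1A, a coactivator of energy metabolism, fell in HepG2 from 11.7 ± 3.14 to 5.01 ± 1.16 FPKM (SD, n = 3 each), a log2 change of −1.08 (limma adjusted p = 0.0111). Its level was also lower in resistant than in parental Huh7, at 0.0948 ± 0.0198 against 0.829 ± 0.101 FPKM (SD, n = 3 each). There it missed the filter and was not tested.

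The patterns most like those of the member with the widest span in each family were also sought, as a description. Closeness was the root mean square difference of centred log2(FPKM + 1) values over the 12 samples, among 14182 genes with a group mean of at least 1 FPKM. Nearest to ADH4, whose group means spanned 3.75 log2 units, were L3MBTL4 (0.37), ITGA2 (0.38) and LOXL4 (0.42). ITGA2, an integrin subunit, measured 109 FPKM in parental and 30.2 FPKM in resistant HepG2, and 14.4 FPKM in parental and 6.47 FPKM in resistant Huh7, as group means. Nearest to ALDH1B1, which spanned 2.46 log2 units, were OAF (0.19), USP2 (0.19) and CLDN19 (0.20). Like ADH4, the genes L3MBTL4, LOXL4 and USP2, and PPARGC1A named above, are on the study's signature list. That list was drawn in part from these samples, so their patterns here are not independent evidence.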

How the data were processed

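RNA of 12 cell samples, 3 in each of 4 groups, was compared. The deposited tables hold 1 value per gene and sample. The authors' unit is not stated, and the deposited values behave as FPKM (or as RPKM, which would look alike): in 6896 genes with a single exon block they are multiples of what 1 read is worth, and over all genes 96.4% of values of up to 2000 reads came within 0.05 of a whole read. Per the labels, RNA came from an RNeasy kit and libraries from NEBNext Ultra, and the study's methods name TRIzol instead. The submitters' processing notes name bcl2fastq and GRCh38, and the aligner, counter and annotation are not given in the sources used here. No molecular identifiers were used, so reads are not independent molecules.

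Tables were read with Python 3.11.15 and pandas 2.3.3. Lengths, positions and GC content came from GENCODE 29 (27234 of 27249 Ensembl genes). Genes were tested with limma 3.58.1 in R 4.3.3 on log2(FPKM + 1), with a variance trend, for genes that reached 1 FPKM in 3 or more of the samples compared. The thresholds, an adjusted p under 0.05 and a log2 change beyond 1, follow the study. The interaction used all 12 samples. The GC trend of each library (lowess, span 0.3) was subtracted as an alternative, and the others were a pseudocount of 0.1, no filter, 2 scalings, no variance trend, limma-voom on the reads, a replicate block, all samples in 1 fit and each sample left out. The code was tested on simulated data. Floors of 3 reads cover counting error only. Members and gene lists were chosen with earlier results of these data known. Listed genes were named if differentially expressed, up to 3 per direction. NONCODE genes were not tested. No replicate was a copy of another (chi-square per gene of at least 9.13).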

Additional observations from a re-analysis of the deposited data

Results flagged for a closer look

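The changes of 4 members with resistance differed between Huh7 and HepG2 by the interaction test of limma over 12 samples, in which 56.3% of all genes also passed. The log2 difference, Huh7 minus HepG2, was 0.51 for ADH5, whose 3 resistant samples were above all parental samples in Huh7 and below all of them in HepG2. It was 0.51 for ALDH2, 0.79 for ADH4 and −0.56 for ALDH1B1. For ADH4 the direction depended on how low values were treated. With a pseudocount of 0.1 its difference was −0.12 and by limma-voom on the reads −0.38, and neither passed. ADH5 kept its call in the 20 alternatives run, ADH4 in 12, ALDH1B1 in 11 and ALDH2 in 10. In Huh7 the GC content of the exons moved with the changes (Spearman rho 0.63), and with the GC trend taken off the differences were 0.94 for ADH5, 0.40 for ALDH2, 1.38 for ADH4 and −0.84 for ALDH1B1. Groups of 3 samples were too small to look for single samples far from the others.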

How the results depend on the processing

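The fall of ADH4 and the rise of ALDH1B1 in both lines passed in each alternative that could be run, with ADH4 from −2.87 to −0.85 in Huh7 (12 alternatives, since ADH4 missed the filter without a parental Huh7 sample) and from −2.49 to −1.94 in HepG2. With the GC trend taken off, 3 instead of 6 members passed and 0 instead of 1 was differentially expressed in Huh7, and ADH6 turned to 0.14. In the interaction, 2 instead of 4 passed with a pseudocount of 0.1 (ADH4 at −0.12) and by limma-voom (ADH4 at −0.38), and 6 with the GC trend taken off. ALDH1A1 turned to 0.076 there under median-ratio scaling and to 0.40 with the GC trend taken off. Leaving out single samples, 2 to 5 members passed in Huh7 (3 without resistant replicate 3 or parental replicate 1, 2 without parental replicate 2) and 0 to 1 was differentially expressed (0 without any parental sample, because ADH4 was then not tested). In HepG2 2 to 4 passed and 2 were differentially expressed each time. In the interaction 1 to 4 passed, with 1 without resistant replicate 3 of either line, and 2 without resistant replicate 2 of either line or without parental Huh7 replicate 1 or 2. Between parental lines 4 passed each time, and between resistant lines 4 to 6. For ALDH2 the range was −0.21 to 0.012 in HepG2 and −0.18 to 0.060 between parental lines, above 0 without parental HepG2 replicate 2. ADH4 could not be tested between resistant lines without a resistant HepG2 sample.

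Replicate numbers were not treated as pairs in the main fits. Deviations of same-numbered samples correlated at −0.23 to 0.08 in Huh7 and −0.01 to 0.44 in HepG2. Those of samples with different numbers correlated at −0.33 to 0.28 in Huh7 and −0.42 to 0.21 in HepG2. Groups of 3 samples do not settle whether the HepG2 samples were paired. With the replicate block, 5 members passed in Huh7 (ADH5 lost, adjusted p by limma 0.056), 4 in HepG2 (ALDH1A1 gained, 0.0351) and 3 in the interaction (ALDH2 lost, 0.0544), and 4 and 5 between parental and resistant lines, as without the block. Of the 40 group levels, 2, both of ADH5, moved by more than 1 SD under median-ratio scaling.

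Low counts limit ADH1A, ADH1B, ADH1C and ALDH3A1, none of which had more than 29 reads in a sample. The cause of the GC trend was not tested.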
